A study of Mus musculus with 6 samples.

Results

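The proteins of the mitochondrial ribosome were followed in epididymal white adipose tissue, the visceral fat pad beside the epididymis, of patDp/+ and wild type mice. Their genes were taken as every gene whose name in the scanner files starts with Mrpl or Mrps and a number. To be counted, a gene needed a probe that 3 or more of the 6 arrays marked as well above background, and its brightest such probe was used. The rule found 76 genes among the 19194 genes or features tested, 47 named for the large subunit and 29 named for the small subunit, read by 121 probes. The study compared 3 patDp/+ mice with 3 wild type mice, all male, of the C57BL/6 background and 9 to 10 weeks old, with 1 single-colour Agilent array per animal. The label patDp/+ stands for a heterozygous duplication inherited from the father, of the mouse chromosome 7 stretch that matches a human chromosome 15 duplication syndrome. The duplication is in every cell of the animal, and the tissue was measured whole.

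Mitochondria carry their own ribosome, which makes only the few respiratory chain proteins encoded by mitochondrial DNA. Its RNA is mitochondrial, but all its proteins are encoded in the nucleus, made in the cytosol and imported. The large subunit forms peptide bonds and holds the exit tunnel, and the small subunit binds the messenger RNA and decodes it. The mammalian particle keeps counterparts of many bacterial ribosomal proteins and has gained a set with no bacterial counterpart. White adipocytes need this machinery for the oxidative capacity that supports lipid synthesis and fat cell formation.

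Promoters are shown first because the nuclear genes of mitochondrial proteins are known to share binding motifs for a few general factors. RefSeq promoter windows on build GRCm38.p6, each 250 bases before and 50 bases after the annotated start, were held for 67 of the 76 genes. A match on either strand to GCGCANGC, the core motif of nuclear respiratory factor NRF1, lay in 20 of the 67 windows (29.9%), against 10.1% of 27025 windows of all genes. CCGGAAG, the motif of ETS factors such as GABP, lay in 23 windows (34.3%), against 9.12% of all windows. AAGATGGC, the motif of YY1, lay in 12 windows (17.9%), against 2.88% of all windows. At least 1 of the 3 motifs lay in 43 windows (64.2%), against 19.5% of all windows. These are letter matches, and no binding was measured. The windows of all genes were not matched to the 67 for expression in fat or base composition. The windows of 6 genes follow, 5′ to 3′ on the gene's own strand, with matches in capitals. Mrpl47 and Mrps5 are shown because they had the smallest p-values below, and neither window holds a match. Mrps26, Mrpl17 and Mrps18a are shown as windows with matches, and Mrpl46 as one that starts back to back with another mitochondrial ribosomal protein gene.
Mrpl47 (chr3:32736706-32737005, minus strand): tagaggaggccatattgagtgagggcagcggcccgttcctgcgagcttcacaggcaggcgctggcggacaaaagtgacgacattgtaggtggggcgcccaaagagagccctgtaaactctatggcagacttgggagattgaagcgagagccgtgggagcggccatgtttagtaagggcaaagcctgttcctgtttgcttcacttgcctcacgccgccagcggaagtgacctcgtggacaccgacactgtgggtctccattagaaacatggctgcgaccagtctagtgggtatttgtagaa
Mrps5 (chr2:127587176-127587475, plus strand): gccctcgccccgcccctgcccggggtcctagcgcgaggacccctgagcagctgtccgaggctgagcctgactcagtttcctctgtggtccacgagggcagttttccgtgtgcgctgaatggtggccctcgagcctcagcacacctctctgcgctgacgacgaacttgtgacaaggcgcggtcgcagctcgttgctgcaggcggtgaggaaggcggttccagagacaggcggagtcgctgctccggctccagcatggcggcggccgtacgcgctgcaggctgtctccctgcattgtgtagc
Mrps26 (chr2:130563507-130563806, plus strand): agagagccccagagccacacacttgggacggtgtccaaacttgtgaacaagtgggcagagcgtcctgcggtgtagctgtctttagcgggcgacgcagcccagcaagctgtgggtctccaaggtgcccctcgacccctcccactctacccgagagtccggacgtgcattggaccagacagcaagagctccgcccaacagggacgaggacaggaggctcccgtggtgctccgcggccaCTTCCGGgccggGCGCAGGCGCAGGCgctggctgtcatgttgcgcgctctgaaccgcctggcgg
Mrpl17 (chr7:105811038-105811337, minus strand): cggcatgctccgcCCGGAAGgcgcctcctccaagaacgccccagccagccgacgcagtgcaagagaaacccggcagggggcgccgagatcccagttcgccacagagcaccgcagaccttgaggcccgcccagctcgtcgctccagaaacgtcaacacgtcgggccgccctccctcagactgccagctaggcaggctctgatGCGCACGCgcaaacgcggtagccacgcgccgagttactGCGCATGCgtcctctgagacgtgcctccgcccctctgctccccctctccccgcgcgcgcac
Mrps18a (chr17:46110754-46111053, plus strand): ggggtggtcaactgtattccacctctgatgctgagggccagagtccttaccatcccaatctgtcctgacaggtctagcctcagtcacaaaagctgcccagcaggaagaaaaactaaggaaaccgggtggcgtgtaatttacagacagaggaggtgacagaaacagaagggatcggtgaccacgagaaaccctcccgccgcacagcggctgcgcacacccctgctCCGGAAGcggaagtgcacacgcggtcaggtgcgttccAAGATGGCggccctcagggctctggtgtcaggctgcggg
Mrpl46 (chr7:78783040-78783339, minus strand): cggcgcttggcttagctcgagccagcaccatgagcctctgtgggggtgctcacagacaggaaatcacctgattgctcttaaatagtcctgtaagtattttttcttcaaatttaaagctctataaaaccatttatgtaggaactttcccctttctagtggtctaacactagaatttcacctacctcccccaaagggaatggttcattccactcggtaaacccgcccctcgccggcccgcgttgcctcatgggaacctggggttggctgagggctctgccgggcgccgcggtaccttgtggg
In Mrps26 a pair of overlapping NRF1 matches lies at the start site with an ETS match just before them. Mrpl17 holds a pair of separate NRF1 matches close to the start and an ETS match near the upstream end of the window. Mrps18a holds an ETS match before the start and a YY1 match just after it.

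Values below are processed intensities on the log2 scale, set relative to the array's 75th percentile, which is therefore 0 on every array. A value orders the same gene across arrays and does not rank different genes, whose probes differ in brightness. The arrays were alike, with 63.8% to 72.1% of spots well above background and a lowest correlation between any 2 arrays of 0.988 over genes. Snrpn and Ndn, paternally expressed genes of the duplicated stretch, checked the labels. Snrpn was at 0.43, 0.77 and 0.61 in patDp/+ mice and at -0.77, -0.48 and -0.51 in wild type mice, a difference of 1.19 ± 0.13 (SE). Ndn was at 1.65, 1.59 and 1.42 in patDp/+ mice and at 0.27, 0.48 and 0.68 in wild type mice. Groups did not overlap for either gene, so the labels held. The adipocyte markers Adipoq, Fabp4, Plin1 and Cfd, like the rest of the 12 adipocyte markers, were well above background on all 6 arrays.

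No mitochondrial ribosomal protein gene differed between patDp/+ and wild type fat at an adjusted p under 0.05, by limma with Benjamini-Hochberg adjustment over all 19194 genes. Across all genes 0% passed that threshold, and the smallest adjusted p of any gene was 0.345. Snrpn had this value and Ndn had 0.372. Even these genes of the duplicated stretch, with differences of 1.19 and 1.08, thus did not pass. The smallest adjusted p among the 76 genes was 0.875. Without adjustment, 1075 genes in all (5.6%) had a p under 0.05, 2.68% of all genes higher and 2.92% lower in patDp/+ fat. Of the 76 genes, 0 were higher and 2 were lower at that level (2.63%), a share near that of all genes. In 6 of the 76 genes (7.89%) every patDp/+ array lay below every wild type array, against 5.89% of all genes. In 0 of the 76 genes did every patDp/+ array lie above every wild type array, against 5.26% of all genes.

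The size of the differences was small. The log2 difference, patDp/+ minus wild type, ranged from -0.21 to 0.11 over the 76 genes, and 50 of them were below 0 (65.8%), against 52.7% of all genes. This lean was not particular to them. Of 81 genes of cytosolic ribosomal proteins 53 were below 0, and of 36 complex I subunit genes 31 were, with medians of -0.016 and -0.070. The median was -0.019 for the large subunit, -0.041 for the small subunit and -0.0087 over all genes tested. The 95% interval of each of the 76 genes lay within a 1.5-fold difference in either direction, the widest bounds being 0.695-fold and 1.43-fold. Among all genes 14253 of 19194 (74.3%) had an interval that narrow, in a comparison not matched for probe brightness. These intervals hold for 1 gene at a time and are not adjusted for the number of genes.

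**Figure D1:**
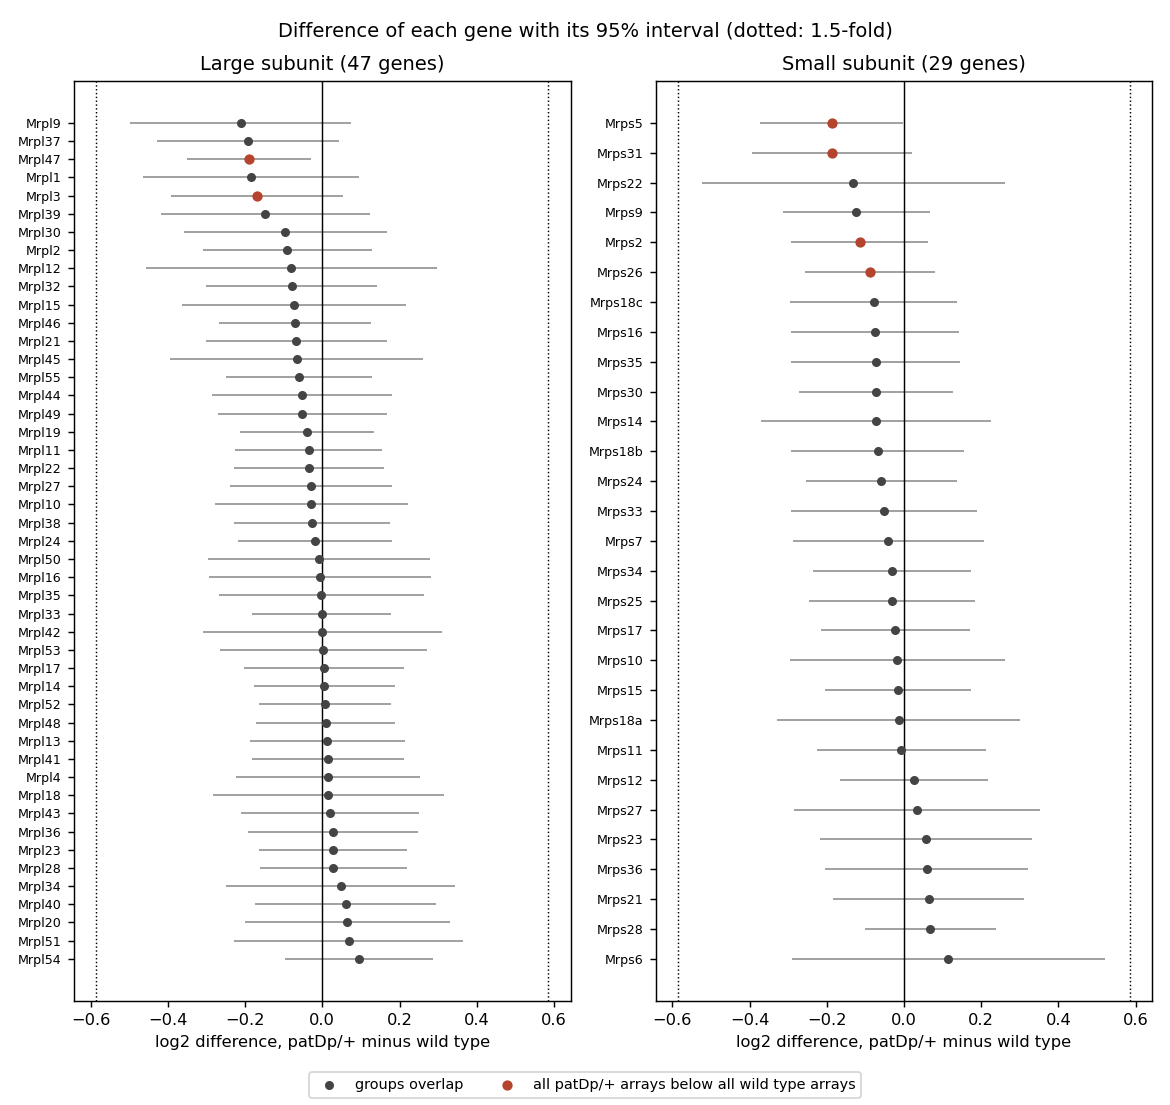
Log2 difference, patDp/+ minus wild type, of each mitochondrial ribosomal protein gene (point) with its 95% interval from limma (line, 3 arrays per group), for 47 large subunit genes (left) and 29 small subunit genes (right). Red points mark the 6 genes whose patDp/+ arrays all lay below the wild type arrays, and every interval lies between the dotted lines at 1.5-fold.

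Among large subunit genes, Mrpl47 had the smallest p. It is the counterpart of bacterial L29, a protein at the exit of the peptide tunnel. Mrpl47 was at 0.11, 0.12 and 0.086 in patDp/+ mice and at 0.32, 0.28 and 0.29 in wild type mice. All 3 patDp/+ arrays were low and the groups did not overlap. Its difference was -0.19 ± 0.066 (SE), or 0.877-fold, with a limma unadjusted p of 0.027 and an adjusted p of 0.875. Another kept probe of Mrpl47 gave -0.18. The probe used lies on chromosome 3 between 32630147 and 32632538 on the minus strand (mm9).

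Mrpl3, which sits beside the peptidyl transferase centre, was at 3.05, 3.10 and 3.09 in patDp/+ mice and at 3.19 and 3.31 in wild type replicates 1 and 3. The spot of wild type replicate 2 was marked as an outlier and left out, so 5 arrays entered the fit. These groups did not overlap, and the difference was -0.17 ± 0.087 (SE; adjusted p = 0.891). Its 3 other kept probes, measured on all 6 arrays, gave -0.079, -0.082 and -0.097.

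Mrpl37, a protein found only in mitochondrial ribosomes, was at 0.74, 0.59 and 0.68 in patDp/+ mice and at 0.71, 0.97 and 0.90 in wild type mice. Mrpl9, a counterpart of bacterial L9, had the lowest difference of the 76 genes, -0.21 ± 0.12 (SE). It was at -0.095, -0.22 and -0.052 in patDp/+ mice and at 0.019, 0.31 and -0.059 in wild type mice. Mrpl1, a counterpart of bacterial L1, was at 1.45, 1.35 and 1.71 in patDp/+ mice and at 1.62, 1.79 and 1.66 in wild type mice. In each of these 3 genes the groups overlapped, and patDp/+ replicate 2 was the lowest and wild type replicate 2 the highest array.

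At the other end of the large subunit, Mrpl54 was at 3.68, 3.55 and 3.66 in patDp/+ mice and at 3.61, 3.53 and 3.47 in wild type mice. The groups overlapped, and its difference of 0.095 ± 0.079 (SE; adjusted p = 0.932) was the highest of the 47. Mrpl51, Mrpl20 and Mrpl40 followed with differences of 0.068, 0.064 and 0.061, each smaller than its standard error. None of the 19 large subunit genes above 0 passed an unadjusted p of 0.05.

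By place in the particle, the 5 genes beside the catalytic centre and the inner tunnel (Mrpl2, Mrpl3, Mrpl4, Mrpl16 and Mrpl27) had differences from -0.17 to 0.016, with 4 below 0. The 3 genes of the stalk that recruits translation factors, Mrpl10, Mrpl11 and Mrpl12, all lay below 0, from -0.081 to -0.029. The 6 genes of the tunnel and its exit ran from -0.19 for Mrpl47 to 0.029 for Mrpl23. The 6 genes of the central protuberance, the crown of the large subunit, ran from -0.072 for Mrpl46 to 0.061 for Mrpl40, with 3 on each side of 0. In the small subunit all 5 head genes, 4 of 6 body genes and 3 of 5 platform genes lay below 0. These places were assigned from textbook knowledge for 36 of the 76 genes, and they carry no test.

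In the small subunit Mrps5, a counterpart of bacterial S5 near the entry of the messenger RNA, had the smallest p. It was at 1.57, 1.54 and 1.51 in patDp/+ mice and at 1.63, 1.76 and 1.79 in wild type mice. All patDp/+ arrays were below all wild type arrays. The difference was -0.19 ± 0.076 (SE), or 0.878-fold, with a limma unadjusted p of 0.048 and an adjusted p of 0.877. Its 3 other kept probes gave -0.14, -0.14 and -0.025. The probe used lies on chromosome 2 from 127429365 to 127429424 on the plus strand (mm9).

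Mrps31, a mitochondria-specific protein, was at 2.50, 2.43 and 2.50 in patDp/+ mice and at 2.68, 2.77 and 2.54 in wild type mice, a difference of -0.19 ± 0.085 (SE; adjusted p = 0.879). Mrps2, a counterpart of bacterial S2, was at 0.57, 0.54 and 0.64 in patDp/+ mice and at 0.65, 0.75 and 0.70 in wild type mice. Mrps26, another mitochondria-specific protein, was at 3.42, 3.39 and 3.44 in patDp/+ mice and at 3.56, 3.49 and 3.46 in wild type mice. The groups did not overlap in these 3 genes, but the nearest arrays of Mrps2 lay close together, at 0.64 in patDp/+ replicate 3 and 0.65 in wild type replicate 1. Mrps9, a head protein, had a difference of -0.12 ± 0.078 (SE) with overlapping groups, the patDp/+ values being 1.47, 1.47 and 1.55 and the wild type values 1.54, 1.70 and 1.62.

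**Figure D2:**
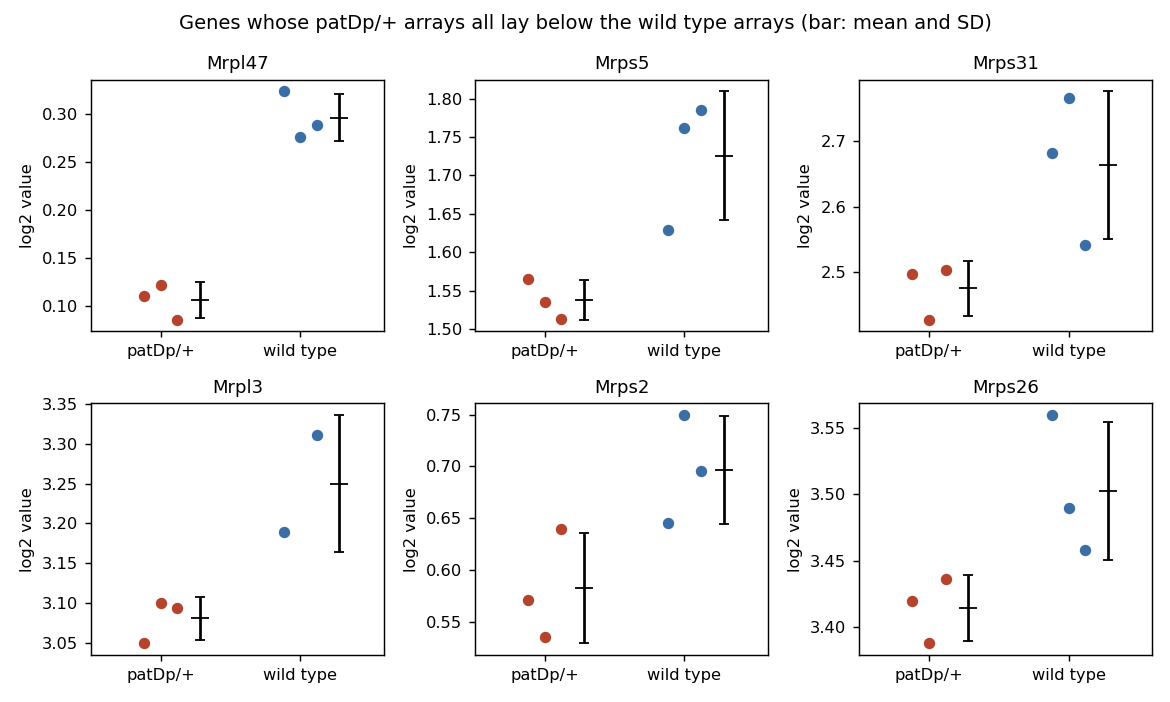
Log2 values of the 6 genes whose patDp/+ arrays (red, left) all lay below the wild type arrays (blue, right), 1 point per animal, with the group mean and SD as bars. Each panel has its own axis, which does not start at 0, and Mrpl3 has 2 wild type values because 1 spot was left out.

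The highest differences of the small subunit were those of Mrps6, Mrps28, Mrps21 and Mrps36. Mrps6, a platform protein, was at 5.01, 4.92 and 4.92 in patDp/+ mice and at 4.49, 4.88 and 5.14 in wild type mice. Its difference was 0.11 ± 0.17 (SE), and the wild type arrays spread on both sides of the patDp/+ arrays. The gene annotation places Slc5a3 within the bounds of Mrps6, and which transcripts the probe reads was not examined. Mrps28 was at 3.96, 3.86 and 3.96 in patDp/+ mice and at 3.86, 3.85 and 3.87 in wild type mice, a difference of 0.068 ± 0.070 (SE). Mrps21 and Mrps36 differed by 0.063 and 0.058, with standard errors of 0.10 and 0.11. Mrps36 is counted here by its symbol, although its protein is now known as a part of the 2-oxoglutarate dehydrogenase complex.

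Mrps30 and Mrps18a carry small subunit names but their proteins lie in the mammalian large subunit. Mrps30 differed by -0.073 ± 0.082 (SE) and Mrps18a by -0.014 ± 0.13 (SE). With both moved to the large subunit the medians stayed at -0.019 and -0.041.

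At the median, the 76 genes varied less from animal to animal than all genes tested, in a comparison not matched for probe brightness. The SD over the 6 arrays had a median of 0.098 among them, 0.10 in the large and 0.094 in the small subunit, against 0.15 over all genes tested. The probe used for each of the 76 genes was well above background on all 6 arrays, whereas the filter asked for only 3. The steadiest were Mrpl52, with an SD of 0.040, and Mrpl19, with 0.047. Mrpl52 was at 4.47 in each of the 3 patDp/+ mice and at 4.53, 4.45 and 4.40 in wild type mice. In the small subunit Mrps28 (0.052) and Mrps15 (0.060) varied least. Mrpl12, the stalk protein that also binds mitochondrial RNA polymerase, varied most in the large subunit with an SD of 0.20. It was at 4.18, 3.81 and 4.11 in patDp/+ mice and at 3.88, 4.34 and 4.12 in wild type mice. Mrps6 (0.22) and Mrps22 (0.21), a mitochondria-specific body protein, varied most in the small subunit. Mrps22 was at 1.82, 1.45 and 1.83 in patDp/+ mice and at 1.62, 2.08 and 1.78 in wild type mice. In Mrpl12 and Mrps22 the spread lay mainly within the groups, with patDp/+ replicate 2 lowest and wild type replicate 2 highest.

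Large and small subunit genes were lowest together on 1 array and high together on 2. Each gene was set against its own mean over the arrays, and the median of these deviations was taken per subunit. In patDp/+ replicates 1, 2 and 3 the large subunit median was -0.0059, -0.13 and 0.084, and in wild type replicates 1, 2 and 3 it was -0.035, 0.080 and 0.028. The small subunit median was -0.039, -0.10 and 0.064 in patDp/+ mice and -0.034, 0.076 and 0.0011 in wild type mice. PatDp/+ replicate 2 was the lowest array for both subunits, and patDp/+ replicate 3 and wild type replicate 2 were high for both. Replicate 1 of each group was also below 0 for both subunits, by less. The median of all genes stayed between -0.015 and 0.0096 on the 6 arrays.

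The shift ran through the individual genes. On patDp/+ replicate 2 only 4 of the 76 genes lay above their own mean (2 of 47 large, 2 of 29 small), against 45.9% of all genes. On patDp/+ replicate 3 the count was 65 of 76 (41 large, 24 small), against 48.5% of all genes. On wild type replicate 2 it was 56 of 76 (33 large, 23 small), against 51.7% of all genes, and Mrpl3 had no value there. On wild type replicate 1 it was 25 of 76 (16 large, 9 small), against 46.5% of all genes. On patDp/+ replicate 1 it was 31 of 76 (21 large, 10 small), against 51.8% of all genes. PatDp/+ replicate 2 was the lowest array for 46 of the 76 genes. The highest array was patDp/+ replicate 3 for 30 genes and wild type replicate 2 for 27 genes, so both groups held an array at the top.

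The balance of the subunits did not move with the genotype by more than its spread. The large subunit median minus the small subunit median was 0.033, -0.022 and 0.020 in patDp/+ mice and -0.0014, 0.0043 and 0.027 in wild type mice. The groups overlapped, with 0.010 ± 0.029 (SD, n = 3) in patDp/+ mice and 0.010 ± 0.015 (SD, n = 3) in wild type mice, a difference of 0.00042. Over the 6 arrays this balance covered a range of 0.055, against 0.21 for the large subunit median and 0.18 for the small subunit median. The large subunit median itself averaged -0.016 ± 0.11 (SD, n = 3) in patDp/+ mice and 0.024 ± 0.058 (SD, n = 3) in wild type mice. That of the small subunit averaged -0.027 ± 0.085 (SD, n = 3) in patDp/+ mice and 0.014 ± 0.056 (SD, n = 3) in wild type mice. In both subunits the groups overlapped.

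**Figure D3:**
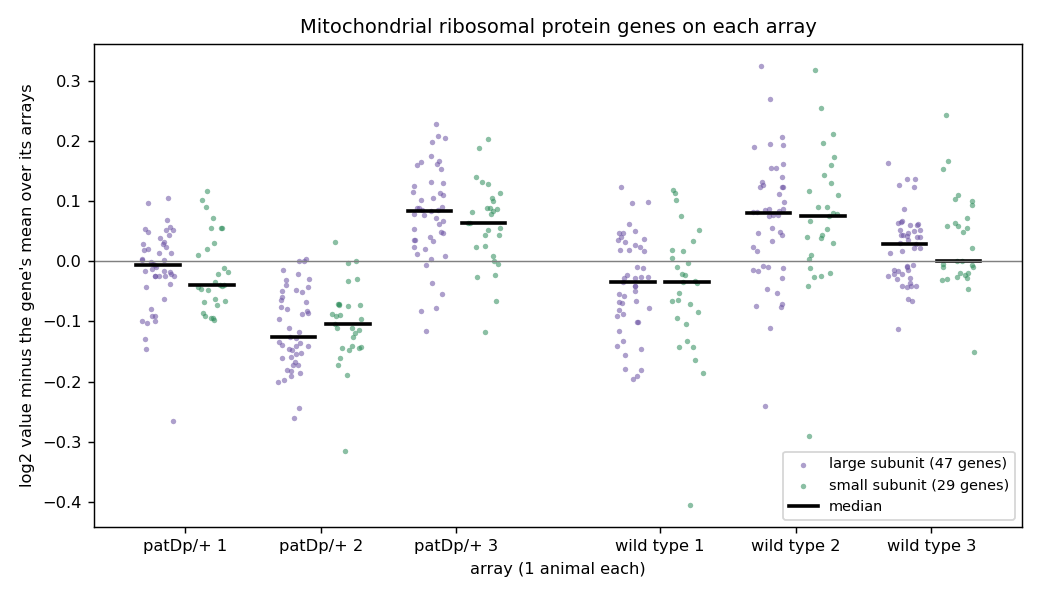
Each of the 76 genes (point) on each array as its log2 value minus the gene's own mean. Large subunit genes are in purple, small subunit genes in green and the median is a black bar. Mrpl3 has no point on wild type replicate 2. Both subunits were low on patDp/+ replicate 2 (-0.13 and -0.10) and high on patDp/+ replicate 3 (0.084 and 0.064) and wild type replicate 2 (0.080 and 0.076).

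Each slide held 1 array of each group, so the groups could be set side by side within a slide. On slide 1, 34 of the 76 genes were lower in patDp/+ fat, with a median difference of 0.024. On slide 2, 67 of 76 were lower, with a median of -0.17, and Mrpl3 had no difference because its wild type spot was left out. On slide 3, 21 of 76 were lower, with a median of 0.048. The lean below 0 over all 6 arrays therefore rested mainly on slide 2, which holds both the lowest patDp/+ array and the highest wild type array. On slide 1 the small subunit median was -0.0098, with 15 of 29 genes lower. Without patDp/+ replicate 2 the medians were 0.026 for the large and 0.0062 for the small subunit. Mrpl47 was lower in patDp/+ fat on all 3 slides, by differences of -0.21, -0.15 and -0.20, and Mrps5 likewise, by -0.064, -0.23 and -0.27. With slide as a block neither kept an unadjusted p under 0.05, and 0 of the 76 genes did, against 982 of all 19194 genes (5.12%) in that fit.

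Markers of other cells moved between the same arrays. The 12 adipocyte markers, 10 of them lower in patDp/+ fat with a median difference of -0.089, had median deviations of -0.032, -0.13 and 0.052 in patDp/+ mice and 0.12, 0.017 and -0.024 in wild type mice. They were lowest on patDp/+ replicate 2, as the mitochondrial ribosomal protein genes were, and highest on wild type replicate 1, where those genes were not. All 10 macrophage markers were higher in patDp/+ fat, with a median difference of 0.25 and median deviations of 0.28, 0.21 and -0.14 in patDp/+ mice and -0.064, -0.17 and -0.16 in wild type mice. All 7 measured T cell markers were higher, with a median difference of 0.45, 4 of them at an unadjusted p under 0.05 (2.68% of all genes were higher at that p). All 5 measured B cell markers were lower, with a median of -0.74 and overlapping groups. Of these, 2 had an unadjusted p under 0.05 (2.92% of all genes were lower at that p). Endothelial markers had a median of -0.19 (5 of 6 lower), progenitor and fibroblast markers 0.033 (3 of 8 lower), mesothelial markers 0.076 (0 of 6 lower) and erythroid markers 0.16 (0 of 3 lower). The 2 muscle markers measured of 4 differed by 0.038 and 1.30, and the 3 epididymis and testis markers measured of 6 had a median of -0.14. Their part in the shifts of the mitochondrial ribosomal protein genes was not tested. In whole tissue, fewer cells of a type and less RNA per cell cannot be told apart.

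**Figure D4:**
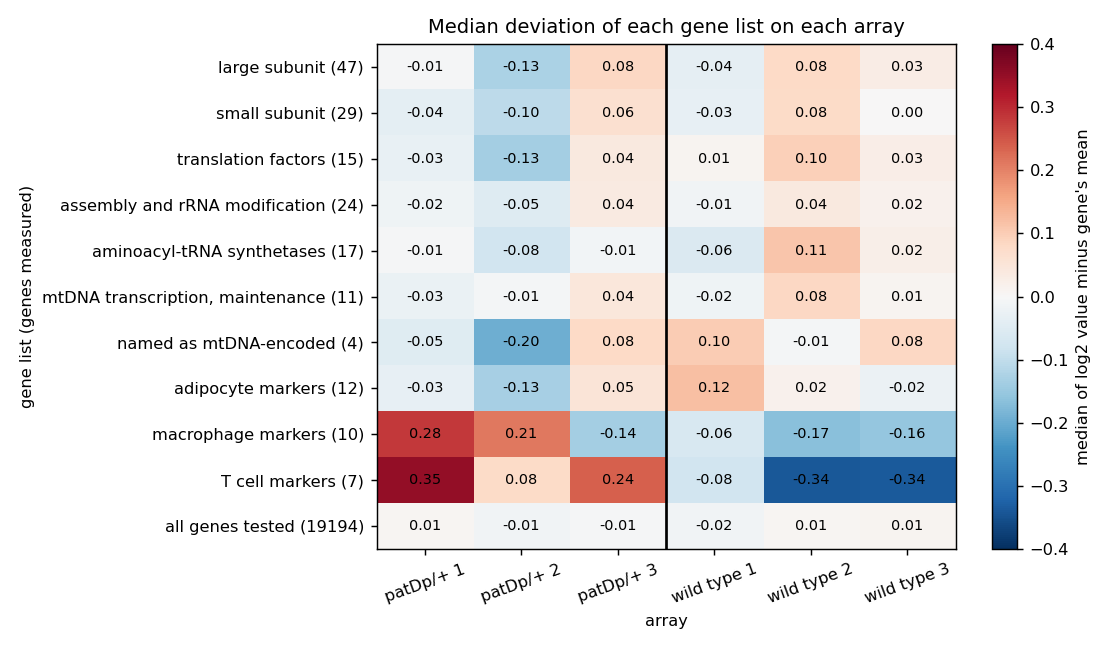
Median deviation of each gene list from the genes' own means (log2, colour and printed value) on each array, with patDp/+ arrays left and wild type arrays right of the line. Both ribosomal subunits and the translation factors were lowest on patDp/+ replicate 2, and the macrophage markers were highest on patDp/+ replicates 1 and 2.

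Genes that work with the mitochondrial ribosome were grouped by role. All of the lists were chosen with earlier results of these data known, so their counts are descriptions. Of 15 mitochondrial translation factors, 14 were below 0, with a median of -0.070. On slides 1, 2 and 3 their medians were -0.040, -0.25 and 0.027, with 10, 12 and 6 genes lower. In the fit of all 6 arrays, 1 of them was lower at an unadjusted p under 0.05. Of all genes, 52.7% were below 0 and 2.92% were lower at that p. The 1 gene was Oxa1l, which inserts newly made proteins into the inner membrane. It was at 1.27, 1.18 and 1.24 in patDp/+ mice and at 1.35, 1.53 and 1.40 in wild type mice. Its groups did not overlap, and its difference was -0.20 ± 0.080 (SE; adjusted p = 0.877). Guf1, the mitochondrial elongation factor 4, and Mrrf, the ribosome recycling factor, differed by -0.14 ± 0.087 and -0.11 ± 0.086 (SE) with overlapping groups.

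Of 24 factors that assemble the particle or modify its RNA, 19 were below 0, with a median of -0.045. In either direction, 0 had an unadjusted p under 0.05. On slides 1, 2 and 3 their medians were -0.028, -0.11 and 0.0069, with 13, 20 and 11 genes lower. Mpv17l2, an assembly factor, was at 2.40, 2.18 and 2.37 in patDp/+ mice and at 2.03, 2.11 and 2.19 in wild type mice, with overlapping groups. The helicase Ddx28 was at 0.58, 0.57 and 0.50 in patDp/+ mice and at 0.62, 0.88 and 0.73 in wild type mice, all patDp/+ arrays being below. Mrm1, a methyltransferase of the mitochondrial ribosomal RNA, was at 1.29, 1.31 and 1.38 in patDp/+ mice and at 1.16, 1.20 and 1.18 in wild type mice, all patDp/+ arrays being above. Their adjusted p-values were 0.877, 0.881 and 0.881.

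Of 17 mitochondrial aminoacyl-tRNA synthetases, which charge the mitochondrial tRNAs, 15 were below 0, with a median of -0.060. On slides 1, 2 and 3 their medians were 0.044, -0.17 and -0.053, with 4, 15 and 11 genes lower. The synthetase gene with the smallest p was higher in patDp/+ fat. Mars2 was at -3.61, -2.90 and -3.66 in patDp/+ mice and at -3.85, -4.03 and -3.82 in wild type mice. Its difference was 0.51 ± 0.22 (SE; adjusted p = 0.877), with no overlap of the groups and a patDp/+ spread set by replicate 2. Ears2 and Iars2 differed by -0.14 ± 0.082 and -0.12 ± 0.077 (SE).

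Further proteins of the particle carry other names, and the 7 measured genes had a median difference of -0.0018. Among them Ptcd3, a small subunit protein, differed by -0.14 ± 0.12 (SE). Mrpl57 and Dap3, a GTP-binding protein of the small subunit head, differed by 0.039 and 0.017, both less than their standard errors. All 7 lay above their own mean on patDp/+ replicate 3 and 0 of 7 on patDp/+ replicate 2.

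Of 11 measured genes for transcription and maintenance of mitochondrial DNA, 9 were below 0, with a median of -0.028. On slides 1, 2 and 3 their medians were -0.011, -0.089 and 0.041, with 7, 8 and 5 genes lower. Tfb2m and Ssbp1, a transcription factor and the single-stranded DNA binding protein, differed by -0.094 and -0.058. Tfam, which packages mitochondrial DNA, differed by 0.050, and all 3 differences were close to or smaller than their standard errors. The 4 probes named for transcripts of mitochondrial DNA were all below 0, with a median of -0.12 and 0 at an unadjusted p under 0.05. The scanner files place those of ND4 and CYTB on mitochondrial DNA but those of COX2 and ATP6 on chromosome 1, and which transcripts these read was not examined. COX2, ATP6 and ND4, named as in the scanner files, differed by -0.15 ± 0.11, -0.16 ± 0.13 and -0.098 ± 0.093 (SE). On slides 1, 2 and 3 the 4 probes had medians of -0.13, -0.16 and 0.045, with 4, 4 and 1 lower.

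Among these lists by role, cell markers aside, regulators of mitochondrial biogenesis held the smallest adjusted p of the limma fit, 0.872. Of the 9 measured, 2 were lower and 1 was higher at an unadjusted p under 0.05, against 2.92% and 2.68% of all genes. The 3 genes with the smallest p were coactivators. Ppargc1a was at -1.28, -1.31 and -1.83 in patDp/+ mice and at -0.66, -0.93 and -0.94 in wild type mice, with no overlap and a difference of -0.63 ± 0.17 (SE). Ppargc1b differed by -0.50 ± 0.20 and Pprc1 by 0.44 ± 0.17 (SE), and the adjusted p-values of the 3 genes were 0.877 or 0.872. On the same arrays, in replicate order, the median deviations of the 76 mitochondrial ribosomal protein genes were -0.016, -0.11 and 0.079 in patDp/+ mice. In wild type mice they were -0.034, 0.078 and 0.022. A link between the levels of these genes and Ppargc1a was not tested. The factors whose motifs are shown above, Nrf1, Gabpa and Yy1, differed by 0.12, 0.039 and -0.012, each without passing an unadjusted p of 0.05. Genes with and without an NRF1 match had median differences of -0.060 (20 genes) and -0.016 (47 genes). For ETS matches the medians were -0.0018 (23 genes) and -0.038 (44 genes), and for YY1 matches -0.010 (12 genes) and -0.031 (55 genes).

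For a scale of comparison, 36 complex I subunit genes of the respiratory chain (names starting with Nduf) had median deviations of -0.070, -0.14 and 0.11 in patDp/+ mice and -0.013, 0.058 and 0.071 in wild type mice. The lowest and the highest patDp/+ arrays were thus replicates 2 and 3, as for the mitochondrial ribosome. The 81 genes named as cytosolic ribosomal proteins (Rpl or Rps) gave 0.00045, 0.018 and -0.041 in patDp/+ mice and 0.10, -0.041 and -0.017 in wild type mice. There patDp/+ replicate 3 and wild type replicate 2, both high for the mitochondrial ribosome, were the lowest arrays.

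Many of the genes start back to back with another gene. A start on the opposite strand within 1000 bases upstream was annotated for 25 of the 67 genes with a promoter window (37.3%), against 12.3% of all genes. This comparison too was not matched for expression or base composition. Mrpl46 and Mrps11 start 42 bases apart, so 1 stretch serves a large and a small subunit gene. Mrpl46, of the central protuberance, was at 1.46, 1.30 and 1.46 in patDp/+ mice and at 1.49, 1.52 and 1.42 in wild type mice. Mrps11, of the platform, was at 0.75, 0.52 and 0.71 in patDp/+ mice and at 0.63, 0.73 and 0.64 in wild type mice. Both had their lowest array in patDp/+ replicate 2, and their differences were -0.072 ± 0.081 and -0.0070 ± 0.090 (SE). The partner of Mrpl47 is Ndufb5, a complex I subunit 308 bases away, which differed by 0.030 ± 0.11 (SE). The partner of Mrps5 is Zfp661 at 332 bases, which differed by -0.082 ± 0.069 (SE). Mrps12, of the decoding centre, starts 147 bases from Sars2, the mitochondrial seryl-tRNA synthetase, and the differences were 0.026 and -0.028. Mrpl43 starts 116 bases from Twnk, the mitochondrial DNA helicase, with differences of 0.020 and -0.0098.

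The genes lay on 17 chromosomes, with 10 on chromosome 11 and 8 on chromosome 17. The 6 on chromosome 7, the chromosome that carries the duplication, were Mrpl17, Mrpl23, Mrpl46, Mrpl48, Mrps11 and Mrps12. They had a median difference of 0.0064.

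Several genes were read by more than 1 probe. Of the 121 probes, 117 were well above background on all 6 arrays, and so was the probe used for each of the 76 genes. None was saturated. Probes of Mrpl41 on 5 arrays and of Mrpl11 on 4 arrays were just inside the filter, and a probe each of Mrpl47 and Mrpl52, well above background on 0 arrays, fell outside it. The dim Mrpl11 probe was at -5.34, -5.47 and -5.55 in patDp/+ mice and at -5.42, -4.75 and -5.13 in wild type mice. The brighter Mrpl11 probe gave -0.036, against -0.35 for the dim one. Among 31 genes with at least 2 kept probes, the median gap between the largest and smallest probe difference was 0.063. In 9 of them, Mrpl1, Mrpl17, Mrpl18, Mrpl35, Mrpl43, Mrpl52, Mrps17, Mrps18c and Mrps33, kept probes lay on both sides of 0. The Mrpl1 probes gave -0.18, 0.041 and -0.012, so the low value named above came from the brightest probe alone.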

How the data were processed

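RNA of 6 fat pads was labelled with Cy3 and hybridised to 1 Agilent array each. Per the file headers, Feature Extraction 9.5.1.1 read the spots, and the deposited processed intensity of each spot is background-subtracted and detrended within its array, not scaled between arrays. The mean and local background intensities of each spot were also deposited. The authors deposited a table of log2 values too, made with a background correction that the sources used here do not give; it served as an alternative only. Agilent Feature Extraction 9.5 and limma 3.18.2 are listed, with no role, in the submitters' processing notes.

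Outlier spots were left out, spots of a probe averaged, and log2 intensities scaled to each array's 75th percentile over 41174 probes. Probes well above background on at least 3 arrays were kept (27975), and the brightest represented a gene. Symbols were updated by RefSeq accession. Groups came from the sample titles and the genotype labels. The comparison used lmFit and eBayes of limma 3.58.1 (R 4.3.3), two-sided and without covariates, over 19194 genes with Benjamini-Hochberg adjustment. The design text speaks of separate mice, so p-values measure the spread between animals, and 3 arrays per group limit the precision. The script was tested on simulated data with known changes. Figures were drawn with matplotlib in Python.

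The genes and lists were chosen with earlier results of these data known. Named genes are, per subunit and direction, the 4 with the smallest p, all with groups that do not overlap, the 2 most and the 2 least variable per subunit, those with kept probes of opposite sign, Mrps30, Mrps18a, Mrps36, Mrpl12, Mrpl46 and Mrps11, and the 3 with the smallest p of each related list. Others are named as parts of a place in the particle, as factors, markers or partners, or for a probe near the filter. Places in the particle and the complex I and cytosolic comparisons were added after values were seen.

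Slide and replicate number coincide, 1 array of each group per slide. Deviations from the group means correlated between same-numbered arrays at 0.106, -0.0898 and -0.0389. Between arrays of different number the correlations ran from -0.125 to 0.145. With 3 arrays per group the deviations sum to 0 within a group, so these values cannot tell whether same-numbered animals were paired. The main fit treated them as unpaired. Which exon or untranslated region a probe reads was not analysed here.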

Additional observations from a re-analysis of the deposited data

How the results depend on the processing

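Under all 17 alternative settings run over all genes, 0 genes reached an adjusted p under 0.05. Of the 76 genes, 2 had an unadjusted p under 0.05. That count was 3 with quantile normalization (Mrpl47, Mrps5 and Mrps31), 3 with array weights (Mrpl37, Mrpl47 and Mrps5), 3 with the trended and robust eBayes (Mrpl47, Mrps5 and Mrps31), 1 with the deposited table (Mrps5), 1 with the mean over kept probes (Mrpl47), 0 with no filter on dim probes, 0 with slide as a block and 0 with the replicate block, which is the same fit. It ranged from 0 to 2 when 1 array was left out. Genes at an unadjusted p under 0.05 over the whole table numbered 982 with the replicate block and from 755 to 1788 with 1 array left out, the highest count coming without patDp/+ replicate 3. No call at an adjusted p changed under the block. With no filter on dim probes, 29182 genes entered the fit, and the subunit medians stayed at -0.019 and -0.041. The cause of these shifts was not tested.

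The medians of the 2 subunits moved by less than the spread between arrays under every setting run, from -0.074 to 0.026 for the large and from -0.099 to 0.0062 for the small subunit when 1 array was left out. The positive ends came when patDp/+ replicate 2 was left out. Leaving out wild type replicate 2 put the large subunit at 0.0032 and the small subunit at -0.020. Large minus small subunit, patDp/+ minus wild type, ranged from -0.023 to 0.0081 with 1 array left out. The lowest array and the 2 high arrays remained so under quantile and cyclic loess normalization. There patDp/+ replicate 2 was at -0.090 and -0.098 for the large subunit.

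Of 969 values of 57 named genes, 912 kept their sign. With all 6 arrays the sign turned for Mrpl17 (-0.0060 with normexp and quantile, -0.0030 with quantile, -0.058 with mean over kept probes, -0.013 with array weights), Mrpl18 (-0.0046 with normexp and quantile, -0.0029 with the deposited table, -0.046 with array weights), Mrps11 (0.017 with normexp and quantile, 0.019 with the deposited table) and Dap3 (-0.0023 with the deposited table, -0.070 with mean over kept probes, -0.033 with array weights). Array weights also turned Mrpl20 (-0.010), Mrpl43 (-0.0027) and Mrps18a (0.013). The mean over kept probes turned Mrpl35 (0.090), Mrpl52 (-0.025), Mrps17 (0.025), Ssbp1 (0.047), Tfam (-0.051) and Mrpl3 (0.19). For Mrpl3 this follows from the construction, since the brightest of its 4 probes is missing on wild type replicate 2.

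With 1 array left out the sign turned within these ranges: Mrpl12 from -0.20 to 0.034, Mrpl17 from -0.045 to 0.064, Mrpl18 from -0.079 to 0.076, Mrpl20 from -0.022 to 0.15, Mrpl35 from -0.080 to 0.067, Mrpl40 from -0.0021 to 0.12, Mrpl43 from -0.041 to 0.10, Mrpl51 from -0.035 to 0.13, Mrpl52 from -0.023 to 0.040, Mrps11 from -0.054 to 0.063, Mrps15 from -0.053 to 0.023, Mrps17 from -0.071 to 0.0095, Mrps18a from -0.092 to 0.11, Mrps21 from -0.014 to 0.12, Mrps33 from -0.11 to 0.016, Mrps36 from -0.021 to 0.13, Mrps6 from -0.059 to 0.27, Dap3 from -0.057 to 0.087, Mrpl57 from -0.013 to 0.11 and Tfam from -0.015 to 0.11.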
